A study of Mus musculus with 8 samples.

Results

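The regions described here are the EHMT2 peaks that were called in all 3 HA ChIP lists of EHMT2-dTAG mESCs. They were chosen by overlap: a peak of the C29F4 DMSO list was kept when it shared at least 1 bp with a peak of the ab9110 DMSO list and with a peak of the ab9110 dTAG list, on chromosomes 1 to 19, X and Y. This held for 2295 of 11010 C29F4 peaks (20.8%), and these 2295 peaks are called shared peaks. The mESCs were serum/LIF-grown BL6/129 hybrid cells in which both copies of Ehmt2 carried, at the end of the reading frame, a degron (dTAG, a mutant FKBP12 domain), a pair of HA tags and an mCherry reporter, and all groups shared this allele. Cells received either DMSO or the degrader dTAG-13 for 24 h and were crosslinked with DSG and then formaldehyde. The C29F4 antibody was used on DMSO cells of 2 EHMT2-dTAG samples whose reads were merged into a single list, and the ab9110 antibody on 1 DMSO and 1 dTAG sample in a separate experiment. Each list therefore stood for its condition without replicates, no test between conditions could be made, and intervals given below are exact Clopper-Pearson 95% intervals that cover counting error only. Since calls in DMSO and in dTAG chose the members, their levels in these lists are given as a description.

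EHMT2, also called G9a, is a histone methyltransferase that places H3K9me1 and H3K9me2, mostly as a partner of EHMT1, and contributes to silencing of genes and transposable elements in embryonic cells. dTAG-13 joins the tagged protein to an E3 ubiquitin ligase so that it is degraded within hours. LINE-1 elements are the most abundant autonomous retrotransposons of the mouse, and the youngest full-length copies start with a row of near-identical promoter units (monomers). YY1 is a zinc finger DNA-binding protein found at many promoters, including those of LINE-1 elements. The mouse reference used here marks repeats only by lower-case (soft-masked) letters and does not name their families, so repeats are described by the length of the masked run and by their sequence.

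The 300 bp windows centred on peak summits show what kinds of DNA the shared peaks covered, in GRCm38 coordinates and on the plus strand. The first set holds the 3 highest C29F4 folds with the summit in a uninterrupted stretch of soft-masked bases of 5 kb or more (a long run), a group that held most of the YY1 motif matches, and the capitals mark the YY1 motif AANATGGCG. These windows lay in introns of Lrrc69 (chr4:14679306-14679605) and Astn2 (chr4:65990191-65990490) and near the olfactory receptor gene Olfr461 (chr6:40541525-40541824), and they are printed to show how alike unlinked members were.
Lrrc69 intron: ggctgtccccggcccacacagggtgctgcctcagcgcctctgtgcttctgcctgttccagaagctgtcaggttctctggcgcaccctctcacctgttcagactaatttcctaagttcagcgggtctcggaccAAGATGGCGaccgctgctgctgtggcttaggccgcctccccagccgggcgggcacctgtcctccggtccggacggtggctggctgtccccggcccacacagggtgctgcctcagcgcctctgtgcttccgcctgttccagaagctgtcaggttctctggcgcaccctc
Astn2 intron: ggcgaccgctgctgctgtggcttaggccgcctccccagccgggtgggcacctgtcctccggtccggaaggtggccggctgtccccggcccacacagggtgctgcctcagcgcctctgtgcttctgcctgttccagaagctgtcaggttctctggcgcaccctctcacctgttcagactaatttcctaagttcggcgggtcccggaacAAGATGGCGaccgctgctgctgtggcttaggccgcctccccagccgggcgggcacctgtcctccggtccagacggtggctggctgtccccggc
near Olfr461: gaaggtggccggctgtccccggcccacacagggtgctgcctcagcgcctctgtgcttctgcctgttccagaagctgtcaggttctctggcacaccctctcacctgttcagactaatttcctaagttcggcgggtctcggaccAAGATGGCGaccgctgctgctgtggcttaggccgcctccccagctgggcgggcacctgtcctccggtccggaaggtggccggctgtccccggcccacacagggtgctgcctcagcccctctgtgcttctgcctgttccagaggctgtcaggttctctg
The Lrrc69 and Astn2 windows shared 127 distinct 31-base words, the Lrrc69 and Olfr461 windows 84 and the Astn2 and Olfr461 windows 110, of 243, 257 and 255 distinct words in each.

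The second set comes from the highest C29F4 folds of all shared peaks that overlapped no peak of the dTAG input list (input peak). The window printed lay in a Camta1 intron (chr4:151604826-151605125, capitals mark an AP-1 motif, TGANTCA) and shared no 31-base word with another printed window.
Camta1 intron: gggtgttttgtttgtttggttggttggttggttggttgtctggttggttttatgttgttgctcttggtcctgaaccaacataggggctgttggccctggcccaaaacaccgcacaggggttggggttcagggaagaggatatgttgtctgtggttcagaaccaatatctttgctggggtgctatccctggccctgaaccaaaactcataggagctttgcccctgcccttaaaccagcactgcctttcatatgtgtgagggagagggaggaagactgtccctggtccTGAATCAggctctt

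The third set gives strong shared peaks at protein-coding starts, those of Pex7 (chr10:19907845-19908144, no motif of those searched) and Kdm3a (chr6:71633508-71633807, capitals mark a YY1 motif on the minus strand). The Kdm3a window also held an E-box, CACGTG.
Pex7 start: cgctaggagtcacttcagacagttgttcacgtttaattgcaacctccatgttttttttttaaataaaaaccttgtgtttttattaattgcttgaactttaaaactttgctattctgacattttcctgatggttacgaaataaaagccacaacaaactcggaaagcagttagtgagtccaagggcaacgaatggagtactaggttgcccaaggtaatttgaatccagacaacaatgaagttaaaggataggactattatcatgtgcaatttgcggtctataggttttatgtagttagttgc
Kdm3a start: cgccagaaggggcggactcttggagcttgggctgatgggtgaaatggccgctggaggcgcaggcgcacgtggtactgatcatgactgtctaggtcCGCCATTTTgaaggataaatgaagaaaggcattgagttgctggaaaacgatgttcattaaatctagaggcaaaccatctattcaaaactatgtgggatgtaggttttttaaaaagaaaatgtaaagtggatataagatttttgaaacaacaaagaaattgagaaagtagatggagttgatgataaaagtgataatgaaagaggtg

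Shared peaks were the broader and taller part of the C29F4 list. The selection favours this, since a wide peak meets a 1 bp overlap more easily and a tall one is more readily called again. The widths and heights are therefore a description of the selected peaks. Their median width was 1036 bp (quartiles 525 and 1662 bp), against 560 bp for the 5079 C29F4 peaks called with ab9110 in DMSO and not dTAG and 376 bp for the 3546 called with ab9110 in neither. The median C29F4 fold, which is the fragments over a summit plus 1 divided by the local background plus 1, was 4.77 in shared peaks, 3.83 in the DMSO-only peaks and 3.38 in the peaks of neither list. To compare lists of different depth, the pileup, which is the number of fragments over a summit, was divided by the list's mean coverage of 3.64 (C29F4), 2.11 (ab9110 DMSO) or 1.23 (ab9110 dTAG) fragments per base. This relative pileup had a median of 13.5 in C29F4, 18.0 in ab9110 DMSO and 10.6 in ab9110 dTAG over the shared peaks. Across the 2295 peaks, which share reads where their sequence is repeated, the Spearman rho of relative pileup was 0.82 between C29F4 and ab9110 DMSO, 0.27 between C29F4 and ab9110 dTAG and 0.38 between the ab9110 lists. Within the position groups described next, the rho between C29F4 and ab9110 DMSO was lower than the pooled value, at 0.53 in long runs, 0.57 in unmasked sequence, 0.68 in shorter runs and 0.71 at starts. With ab9110 dTAG it was 0.32, 0.33, 0.37 and 0.28 in the same order, lower than with ab9110 DMSO in each group. Every member had to be called in dTAG, and the pileups there were low and close together. Their quartiles were 11 and 16 fragments, against 25 and 51 in ab9110 DMSO. How far this narrow range lowered the rho with dTAG was not tested. Among all C29F4 peaks, the share that was shared rose with height, from 3.08% in the lowest quartile of C29F4 relative pileup to 48.5% in the highest.

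Summit positions, which the selection did not use, divided the shared peaks into 4 exclusive groups. A transcription start lay within 1 kb of 224 summits (9.76%, 95% interval 8.58 to 11%). Another 1002 summits (43.7%, 41.6 to 45.7%) lay in a soft-masked run of 5 kb or more, 417 (18.2%) in a shorter soft-masked run and 652 (28.4%) in unmasked sequence. Counting also the 12 at starts, 1014 shared peaks (44.2%) lay in long runs, which make up 4.76% of the genome. Of all ab9110 DMSO peaks 10.2% lay in long runs, and of all ab9110 dTAG peaks 8.15%. In the DMSO-only peaks 25.9% and in the peaks of neither list 12.0% lay in long runs, and these intervals did not overlap that of the shared peaks. Starts were also somewhat more frequent in shared peaks than in DMSO-only peaks (6.73%) or peaks of neither list (5.98%), against 6.05% of genome bases and 43.9% of all ab9110 dTAG peaks. Of the shared peaks, 1408 summits were intergenic (61.4%), 800 intronic (34.9%) and 87 exonic (3.79%), much as in the whole C29F4 list (60.9%, 35.2% and 3.85%).

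**Figure D1:**
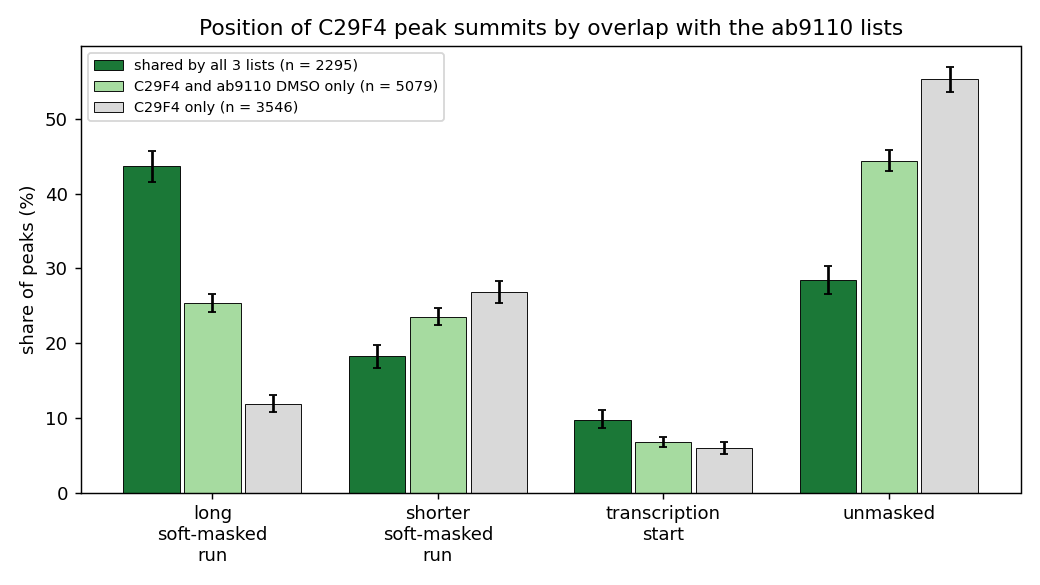
Share of C29F4 peaks (y axis, %) by position of the summit (x axis), for peaks shared by all 3 lists (dark green), peaks called with C29F4 and in the ab9110 DMSO list only (light green) and peaks called with C29F4 only (grey); error bars are 95% intervals. Long soft-masked runs held 43.7% of the shared peaks and 11.9% of the C29F4-only peaks, and unmasked sequence 28.4% and 55.3%.

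Within quartiles of C29F4 relative pileup, cut over the whole C29F4 list, the share of peaks that were shared also differed by position. Within the highest quartile of C29F4 relative pileup, 913 of 1540 long-run peaks were shared (59.3%, 56.8 to 61.8%), against 114 of 234 at starts (48.7%), 121 of 305 in shorter runs (39.7%) and 146 of 587 in unmasked sequence (24.9%, 21.4 to 28.6%). In each lower quartile the order was different, and long-run peaks were the least often shared. Their shared percentage was 0.633, 7.08 and 12.1 from the lowest quartile up, and that of start peaks 2.83, 14.5 and 29.7. In shorter runs it was 3.96, 11.7 and 29.2, and in unmasked sequence 3.06, 11.2 and 22.4. The long-run members were thus mostly tall peaks. Their median C29F4 relative pileup was 21.7, against 9.35 in unmasked shared peaks. The highest quartile has no upper limit, so its contrast between positions was not separated from height. Nor was it separated from width, whose median was 1638 bp in long-run and 588 bp in unmasked shared peaks.

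The long-run shared peaks had a common sequence. Of the 1002 windows in this position group, 971 (96.9%, 95.6 to 97.9%) held the YY1 motif, searched on both strands, whereas 0.454% of all 300 bp windows of the genome did. In the other C29F4 peaks of long runs 53.3% held it (50.9 to 55.6%), and in all shared peaks 48.5%. A long-run C29F4 peak with the motif in its window was shared in 971 of 1886 cases (51.5%), and one without it in 31 of 834 (3.72%, 2.54 to 5.23%). In the highest quartile of C29F4 relative pileup the same shares were 60.5% of 1492 and 20.8% of 48 peaks. The windows were GC-rich (median 63.0%, genome windows 41.3%) and had a median of 17 CpGs, against 2 in genome windows. This was not particular to the shared peaks. In DMSO-only peaks of the long-run group the medians were 61.7% and 16 CpGs, and in those of neither list 40.0% and 4. A match is a description of these letters and does not show that YY1 was bound.

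The motif recurred at a fixed distance and at a fixed place in the run. Over the whole peak, 996 of the 1014 long-run shared peaks held at least 1 match and 946 held at least 2, with a median of 3 and at most 25. Of 2682 distances between neighbouring matches in a peak, 2461 (91.8%) were exactly 212 bp. Matches lay only on the plus strand in 477 peaks, only on the minus strand in 514 and on both strands in 5. The runs had a median length of 6832 bp (quartiles 6544 and 7191 bp), and the summit lay a median of 515 bp (quartiles 347 and 758 bp) from the nearer end. In 989 of the 991 peaks with matches on a single strand, the nearer end was the one towards which the motif read (99.8%). The summits of the 1315 DMSO-only peaks in long runs were as near to an end (median 396 bp), while those of the 424 long-run peaks of neither list were further in (median 1313 bp).

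**Figure D2:**
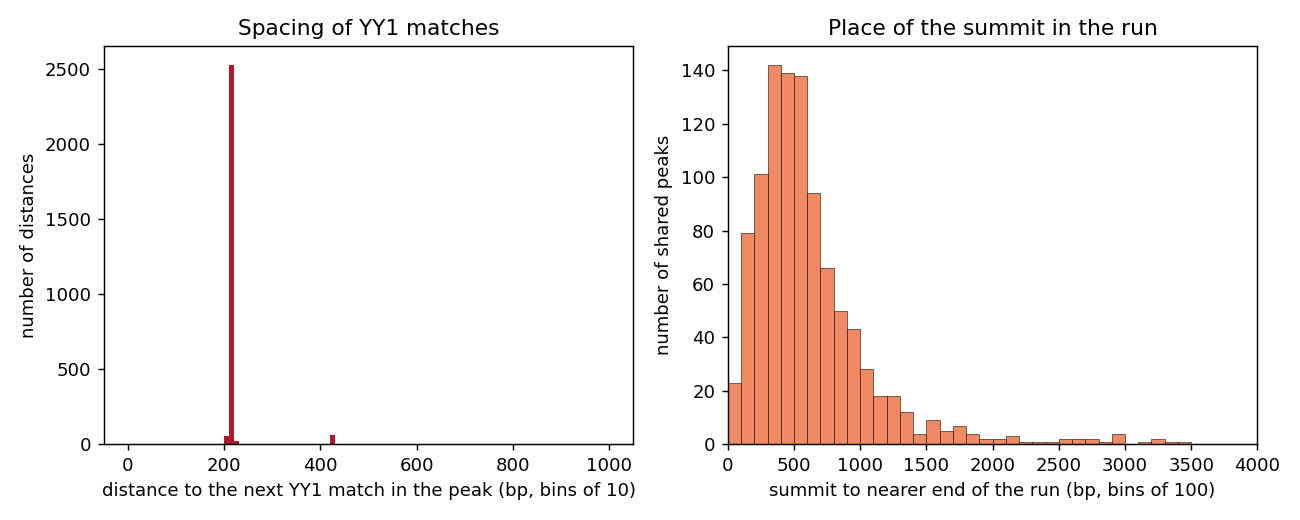
Left, number of distances (y axis) between neighbouring YY1 motif matches within the shared peaks of long soft-masked runs, by distance in bp (x axis); right, number of shared peaks (y axis) by distance of the summit from the nearer end of the run in bp (x axis). The left panel has a dominant bar at 212 bp, and the right panel has its median at 515 bp.

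The number of matches in a run went together with the presence of a shared peak. The genome held 14481 soft-masked runs of 5 kb or more, and 1008 of them (6.96%) held a shared peak, of which 6 held more than 1. Among the 8687 runs with no match 9 held a shared peak (0.104%, 0.0474 to 0.197%), among the 2164 runs with 1 match 41 did (1.89%) and among the 2121 runs with 2 matches 208 did (9.81%, 8.57 to 11.2%). The share was 40.2% of 644 runs with 3 matches (36.4 to 44.1%), 52.3% of 421 runs with 4, 59.6% of 203 runs with 5 and 62.2% of 241 runs with 6 or more (55.8 to 68.4%). The intervals of neighbouring classes did not overlap up to 4 matches, and those for 4 and 5 matches, and for 5 and 6 or more, did. These intervals count runs as independent, although reads that fit several copies were placed at random among them, so they are no test between classes. Runs with more matches were also longer, with medians of 6419 bp without a match, 6656 bp with 3 matches and 7515 bp with 6 or more. The part of run length in these shares was not tested. Any C29F4 peak was found in 5.58% of runs without a match and 79.3% of runs with 6 or more, so the order was that of the C29F4 list as a whole, while an ab9110 dTAG peak was found in 1.5% and 63.5%.

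**Figure D3:**
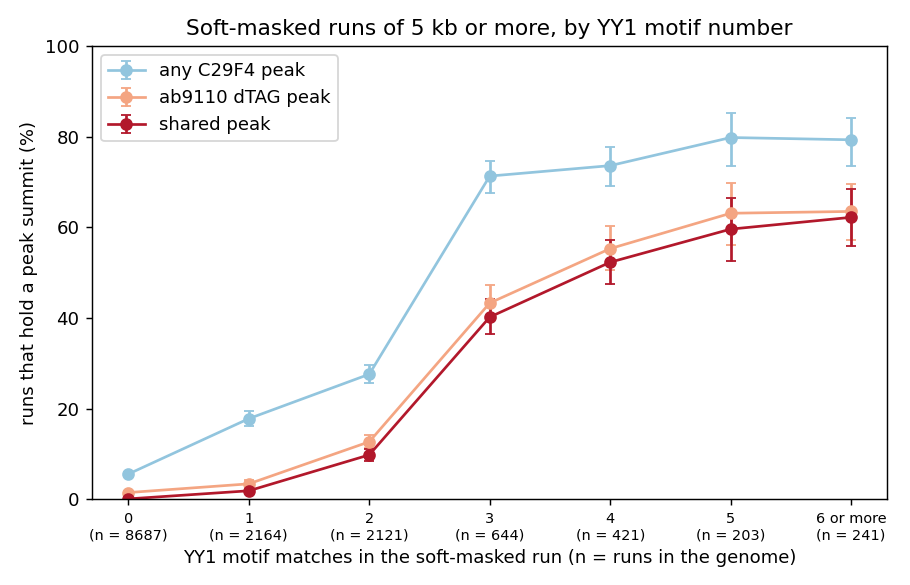
Share of the soft-masked runs of 5 kb or more in the genome that hold the summit of a shared peak (dark red), an ab9110 dTAG peak (orange) or any C29F4 peak (blue) on the y axis (%), by the number of YY1 motif matches in the run on the x axis; error bars are 95% intervals. The share with a shared peak stays under 10% up to 2 matches and lies between 40.2% and 62.2% from 3 matches on.

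These peaks are not independent observations. The median 31-base word of a long-run window had 1867 copies in the genome, and 1034 of the 2295 shared peaks formed a single group linked by windows that shared at least 50 of 270 words, 961 of them in the long-run position group. In this group 98.2% of windows held the YY1 motif. The next group had 34 members (median GC 66.8%, YY1 in 85.3%) and 1120 shared peaks in all belonged to 20 such groups. Reads that fit several copies equally well were placed at a random copy by the authors, so the level at any 1 copy also holds reads of others, and the number of copies that were occupied cannot be told apart from the placing. Outside long runs, 1089 of 1293 shared peaks had words with a median of 1 copy.

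Shared peaks were lower in dTAG than in DMSO most often in long runs. Over all shared peaks the median ratio of relative pileup, dTAG to DMSO, was 0.618 (quartiles 0.452 and 0.893), and 1881 (82.0%, 80.3 to 83.5%) were lower in dTAG. Over the whole ab9110 DMSO list, of 7719 peaks with a dTAG partner 38.7% were lower in dTAG and 10.5% were at 0.5 of the DMSO level or less. Of the shared peaks 798 (34.8%, 32.8 to 36.8%) were at 0.5 or less, and among the 5448 DMSO peaks with a dTAG partner that touched no shared peak 14 were (0.257%). Over those 5448 peaks the median ratio was 1.29. In the long-run group the median ratio was 0.456 (quartiles 0.396 and 0.537), with 991 of 1002 peaks lower in dTAG (98.9%, 98.0 to 99.5%). It was 0.793 in shorter runs (308 of 417 lower), 0.859 in unmasked sequence (446 of 652 lower) and 0.870 at starts (136 of 224 lower, 60.7%).

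**Figure D4:**
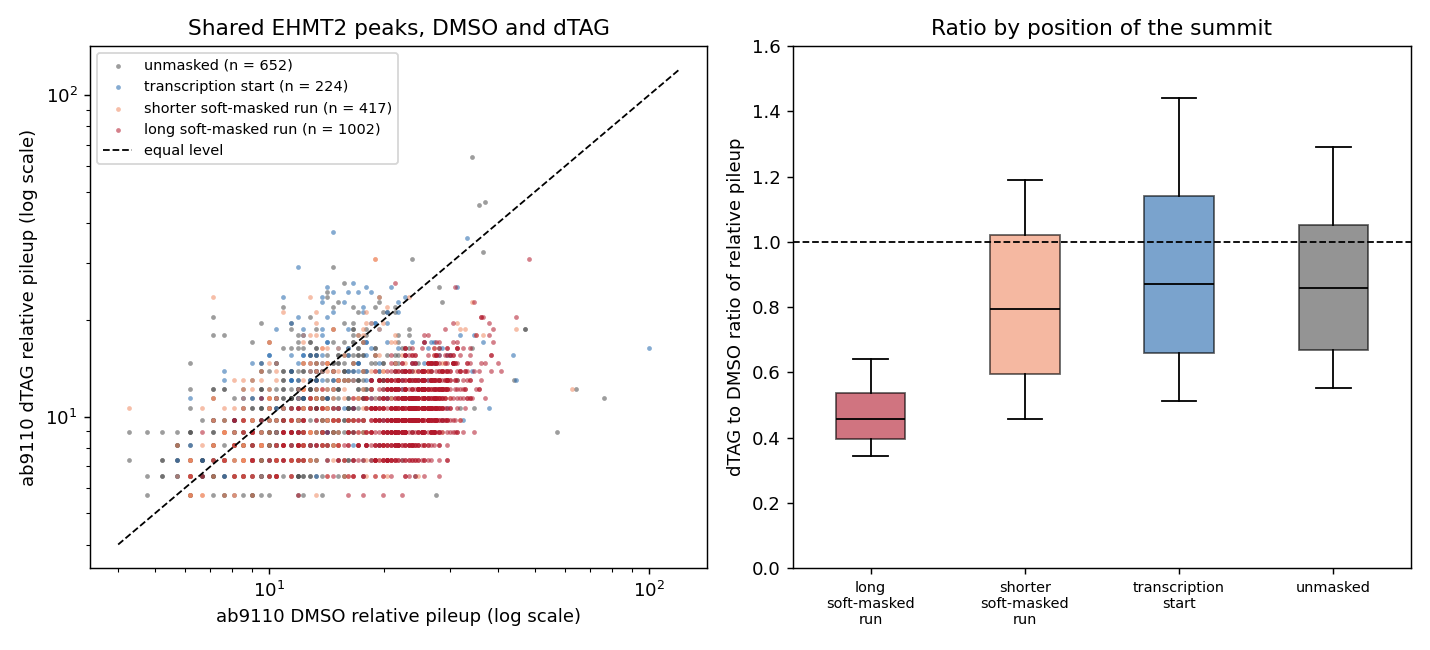
Left, relative pileup (fragments at the summit over the list's mean coverage, log scales) of the 2295 shared peaks in ab9110 DMSO (x axis) and ab9110 dTAG (y axis), coloured by position group, with a dashed line at equal levels; right, the dTAG to DMSO ratio (y axis) by position group, with boxes from quartile to quartile, a line at the median and whiskers at the 10th and 90th percentiles. Long-run peaks lie below the line in a band near a DMSO level of 23.7, and the other groups lie closer to it.

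The calls bound this ratio. A dTAG peak had to be called, and the lowest relative pileup of a shared peak in dTAG was 5.70, so a peak low in DMSO could not have a low ratio. Levels in dTAG also differed between groups of like DMSO level. For DMSO relative pileups from 20 to under 25, the median dTAG relative pileup was 10.6 in 389 long-run peaks (quartiles 8.96 and 12.2), 10.6 in 35 peaks of shorter runs, 13.9 in 38 unmasked peaks (10.6 and 16.3), 14.3 in 28 peaks at starts and 22.8 in 81 DMSO peaks without a shared peak (18.7 and 31). From 10 to under 15 the medians were 8.15, 9.78, 10.6, 13.0 and 14.7 in the same order. The median ratios in the 20 to 25 band were 0.456 in long runs, 0.496 in shorter runs, 0.609 in unmasked sequence, 0.607 at starts and 1.09 outside the shared set. In the 10 to 15 band they were 0.720, 0.793, 0.831, 1.02 and 1.24. In these 2 bands the median ratio was lower in shared peaks than outside the shared set and lowest in long runs. Shared peaks at starts were not lower in dTAG in the 10 to 15 band. This is a description, since the calls behind these levels chose the members. Shared peaks also needed a C29F4 call on DMSO cells, and the outside peaks were not divided by position. The ratio compares 1 library with 1 library, and how much of it came from the treatment and how much from the libraries cannot be told apart. Whether the dTAG signal was left-over EHMT2-dTAG was not tested.

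Peaks with low and with high ratios are given as examples. For single peaks an exact binomial interval of the ratio from the 2 pileups is given, which covers counting error only, and these peaks were picked for their values. In the Camta1 intron (Camta1 is a calmodulin-binding transcription activator) the pileup was 521 fragments in C29F4, 160 in ab9110 DMSO and 14 in ab9110 dTAG, a ratio of 0.150 (0.0803 to 0.260). Other low ratios were those of a peak in an intron of the long non-coding RNA gene Gm31108 (chr6:143128755-143129989), with 245, 121 and 11 fragments and a ratio of 0.156, and of a peak in an intron of Dgki, a diacylglycerol kinase gene (chr6:37206018-37208477), with 103, 135 and 15 fragments and a ratio of 0.191. None of these 3 was in a long run. At the other end a peak 1158 bp from Atg14, an autophagy gene (chr14:47571532-47571909), had 28, 15 and 29 fragments and a ratio of 3.32 (1.72 to 6.66). The peak 219 bp from an Ndrg3 start (chr2:156992082-156992826) had 49, 31 and 46 fragments and a ratio of 2.55 (1.58 to 4.16). A Commd10 intron (chr18:46997857-46998233) gave 2.86, a peak near Hnrnpa3 (chr2:75670348-75670660) 2.52 and a peak near Dcaf12l1 (chrX:44808898-44809762) 2.48, the last from 9 and 13 fragments, with an interval of 0.981 to 6.57 that includes 1. Only 12 shared peaks reached a ratio of 2 (0.523%), against 4.77% of all ab9110 DMSO peaks with a partner.

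Given next are the 5 long-run members with the highest C29F4 folds. This choice favours a higher fold in C29F4 than in ab9110 DMSO, which each of the 5 had. Each also had a higher fold in DMSO than in dTAG. Over all 1002 peaks of the long-run group the median folds were 6.83 in C29F4, 7.88 in ab9110 DMSO and 3.94 in ab9110 dTAG. The peak in the Lrrc69 intron (chr4:14678536-14680753) had C29F4, DMSO and dTAG folds of 20.0, 7.72 and 5.49, with 4 YY1 matches, and a ratio of 0.495. The Astn2 intron (astrotactin 2, a neuronal membrane protein; chr4:65989401-65991219) gave folds of 16.9, 13.7 and 4.95 and a ratio of 0.362, and the peak by Olfr461 (chr6:40540616-40542505) folds of 16.4, 8.82 and 5.91 and a ratio of 0.520, each with 3 matches. A peak near Gm12760 (chr7:34046371-34048105; 4 matches) had folds of 16.0, 8.22 and 3.41 and a ratio of 0.411. A Lrrc7 intron (chr3:158447132-158448796; 3 matches) gave 16.0, 9.03 and 3.31 and a ratio of 0.422. None of these 5 overlapped an input peak. The Gm12760 window stood apart in copy number, with a median of 7 copies per word against 1170 to 2281 in the other 4. The fifth highest C29F4 fold among shared peaks without an input peak was instead in unmasked sequence, in an exon of Tmc2, a mechanotransduction channel gene of the inner ear (chr2:130207437-130210080), with folds of 19.3, 15.8 and 3.34 and a ratio of 0.306.

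Shared peaks at gene starts had another sequence make-up. Within 1 kb of a protein-coding start lay 158 shared peaks (6.88%), against 3.99% of all C29F4 peaks, and they touched 187 of 21911 protein-coding genes (0.853%). In the start group the YY1 motif was in 24.1% of windows (18.7 to 30.3%; other C29F4 peaks at starts 13.6%, 10.8 to 16.6%). The ETS motif CCGGAAGT was in 10.3% (6.62 to 15%; others 4.23%, 2.73 to 6.22%) and the E-box in 11.2% (7.35 to 16.0%; others 4.75%, 3.16 to 6.84%). The REST motif TTCAGCACC, part of the site of the repressor REST, went the other way, with 2.68% in shared peaks at starts (0.989 to 5.74%) and 9.51% in the others (7.22 to 12.2%). The YY1, ETS and E-box words each hold a CpG, and the REST word does not. Start windows had a median of 10 CpGs in shared peaks, 6 in DMSO-only peaks and 5 in peaks of neither list. The part of CpG content in these motif shares was not tested. Over all positions REST was in 0.828% of shared peaks and 3.64% of DMSO-only peaks (genome 0.293%). Of the 319 C29F4 peaks with it, 19 were shared, 185 were called with ab9110 in DMSO and not dTAG and 113 in neither.

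Among the strongest at protein-coding starts was Nr3c1, the glucocorticoid receptor gene (chr18:39491329-39492531), with pileups of 222, 92 and 19 in C29F4, DMSO and dTAG and a ratio of 0.355 (0.204 to 0.586). The peak by Pex7, a peroxisomal import receptor gene (chr10:19907493-19908646), had 113, 40 and 14 and a ratio of 0.601, whose interval of 0.302 to 1.13 includes 1. Upstream of Kdm3a, which encodes a demethylase of H3K9me1 and H3K9me2, a peak 668 bp from the start (chr6:71633409-71634252) had 156, 38 and 31 and was the only one of the 10 strongest that was not lower in dTAG, with a ratio of 1.40 (0.843 to 2.31). The start of Mkrn3, an imprinted gene (chr7:62419807-62421139), had 198, 94 and 16 fragments and a ratio of 0.292, and it also overlapped an input peak. In CN725425, Bscl2 (seipin, of lipid droplets), Mtx3, C2cd5 and Heatr6, whose summits were 12 to 81 bp from a start, the ratios were 0.343, 0.518, 0.500, 0.468 and 0.542.

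Few genes of the gene lists had a shared peak at the start. A lone gene each was found of 32 germline and meiosis genes (Ddx4, a germ cell RNA helicase), of 20 pluripotency genes (Zfp42, also called Rex1) and of 20 genes of the EHMT complex and H3K9 methylation (Kdm3a). None was found of 24 two-cell genes in the annotation, 11 PRC1.6 genes or 24 germ layer regulators. At Ddx4 the pileups were 41, 21 and 13 with a ratio of 1.06 (0.489 to 2.22), and at Zfp42 41, 28 and 17 with a ratio of 1.04 (0.535 to 1.97), so neither was lower in dTAG. Of 394 zinc finger genes 8 (2.03%) had a shared peak at the start, against the 0.853% of all protein-coding genes. These were Zfp518a (ratio 0.526), Zfp445 (0.548), Zfp422 (0.981), Zfp617 and Zfp882, which share a peak (0.668), and Zfp42, Zfp280d and Zfp541. Within the gene, a shared peak was found in 621 protein-coding genes (2.83%), in 13 zinc finger genes (3.30%), and in Dppa2, Tet1 and Zfp42 of the pluripotency list and Cdyl, Trim28 and Zfp462 of the EHMT and H3K9 list. Dppa2 is an activator of two-cell genes, Tet1 oxidises 5-methylcytosine, Cdyl encodes a chromodomain protein that binds EHMT2 and Trim28 is the corepressor of KRAB zinc finger proteins. Counts of 0 to 3 per list are too small to be read against the background.

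Shared peaks in shorter masked runs and in unmasked sequence held the YY1 motif far less often than those in long runs, though more often than the genome (0.454%). It was in 15.6% of the windows of shorter runs (12.2 to 19.4%; other C29F4 peaks there 11%, 9.70 to 12.4%) and in 3.68% of unmasked windows (2.37 to 5.43%; others 3.55%, 3.01 to 4.15%), and their median GC was 46.3% and 46.0%. Counts of 8-base words in the shared windows, made after the data were seen, led to 2 more motifs. These were chosen for their frequency in the shared windows, so their excess there is a description of that choice. The SOX-type word AACAATAG, as bound by SOX proteins such as the pluripotency factor SOX2, was in 82 of 417 windows of shorter runs (19.7%), in 6.30% of the other C29F4 peaks there and in 1.20% of genome windows. These 82 peaks lay in runs with a median length of 122 bp, 56 of them were intergenic, 65 were lower in dTAG (median ratio 0.775) and only 11 shared 31-base words with another member. The ESRRB-type word TCAAGGTCA, the site of an orphan nuclear receptor of mESCs, was in 5.37% of unmasked shared windows and 2.44% of the other unmasked C29F4 peaks, and in 5.04% and 2.34% in shorter runs (genome 0.629%). The octamer ATTTGCAT of OCT4 was in 5.52% of unmasked shared windows and 4.61% of the others, intervals that overlapped.

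**Figure D5:**
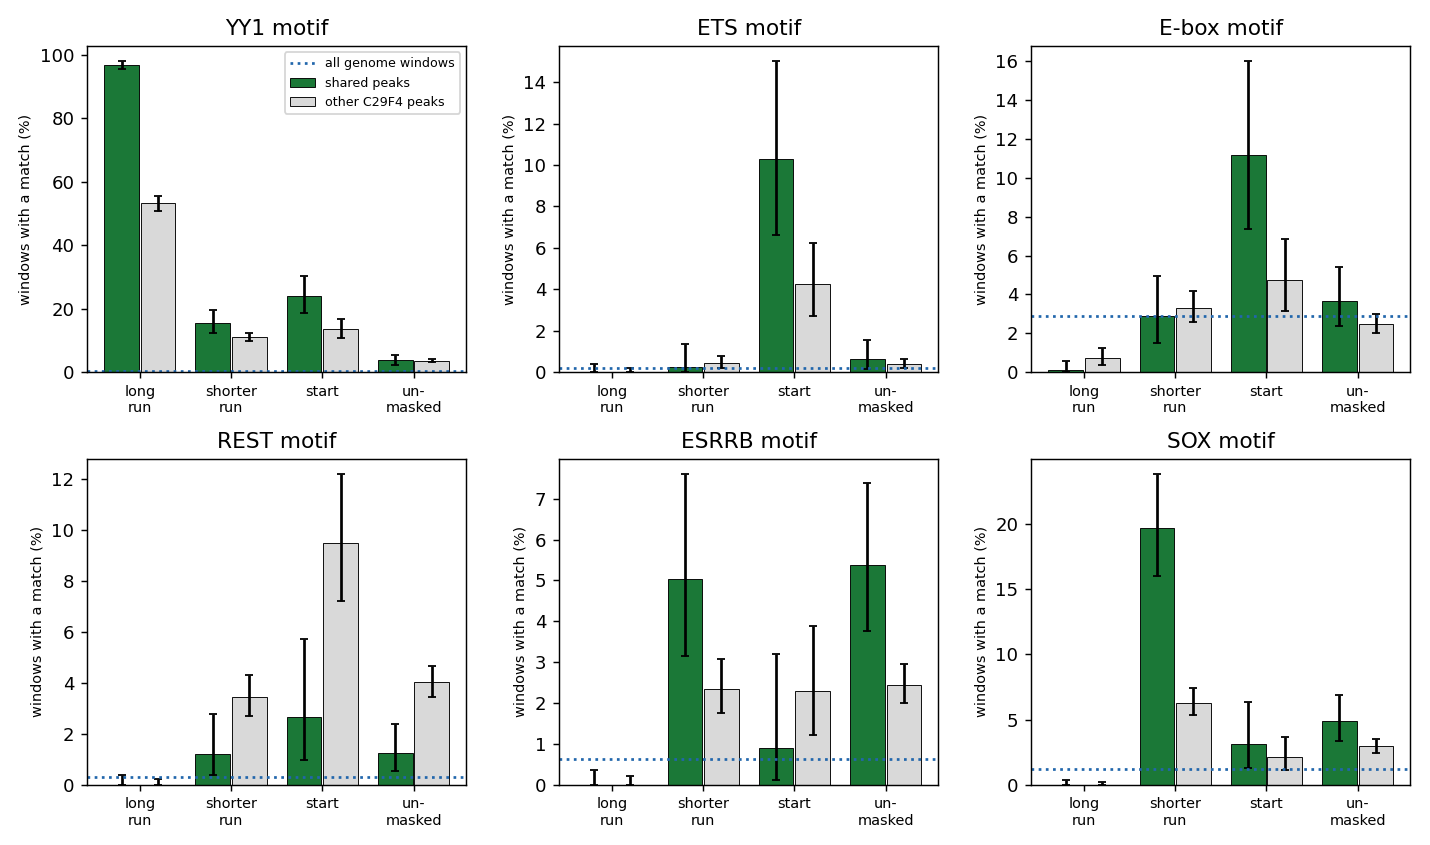
Share of 300 bp summit windows with a motif match (y axis, %) by position group (x axis) for 6 motifs, in shared peaks (green) and other C29F4 peaks (grey), with 95% intervals; the dotted line is the share over all windows of the genome. YY1 reaches 96.9% in shared peaks of long runs, ETS and E-box are highest at starts, and SOX, which was chosen from these windows, is highest in shorter runs.

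Of the other motifs, some were near their genome share and some above or below it. In shared windows outside long runs the AP-1 motif was in 10.1% (genome 8.84%), the GATA motif TGATAAG in 2.24% (4.12%), the CTCF word AGGGGGCGC in 0.0773% (0.0569%), the T-box word AGGTGTGA in 1.47% (1.17%) and the TFIIIC B box GTTCGANNC in 1.86% (1.23%). CA units repeated 8 times were in 0.619% (3.38%) and 8 GA units in none (1.54%). The E2F word GGCGGGAA (1.39%; genome 0.220%), the NRF1 word GCGCATGCG (0.464%; 0.0444%), the ZBTB33 word CTCGCGAG (0.387%; 0.0132%) and the ZFP57 word TGCCGC (4.33%, 3.29 to 5.59%; 1.79%) were above the genome share. The ZFP57 word was in 14.7% of shared windows at starts (10.4 to 20.1%; other C29F4 peaks at starts 9.33%, 7.07 to 12.0%). It was in 2.64% of those in shorter runs (1.32 to 4.67%; others 3.40%, 2.68 to 4.25%). In unmasked sequence it was in 1.84% (0.955 to 3.19%; others 115 of 4254, 2.24 to 3.24%). Shared windows were thus higher at starts and lower in shorter runs and unmasked sequence, with overlapping intervals. Over all positions it was in 2.75% of shared and 3.33% of DMSO-only peaks. The E2F word was in 0.784% and 0.768%, NRF1 in 0.261% and 0.0394% and ZBTB33 in 0.218% and 0.0788%. In shared windows outside long runs the word GGGGCGGGG of SP and KLF factors was in 0.928% (genome 0.503%) and the DUX word GATTCAATC in 0.155% (0.172%). The GC content of these windows was above that of the genome, and its part in these shares was not tested.

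Every chromosome but Y, which held 1 C29F4 peak, had shared peaks. Between 15% (chromosome 8) and 30.3% (chromosome X) of the C29F4 peaks of each other chromosome were shared, and the X value stood above the next highest, 24.4% on chromosome 6. On X, 110 of 140 shared peaks were in long runs. Input peaks overlapped 37 shared peaks (1.61%, 1.14 to 2.22%), against 0.981% of all C29F4 peaks, and tRNA genes lay within 1 kb of 2. At the edge of the selection, the 3 members with the smallest overlap with a dTAG peak, at 1, 2 and 7 bp, had C29F4 folds of 2.75 (at an E130018N17Rik start), 3.85 (near Gm49446) and 2.19 (by Tent2). The 3 nearest peaks just outside, 0, 4 and 10 bp from a dTAG peak, had folds of 4.58 (near Kat2b-ps), 4.31 (near AC122453.2) and 9.89 (in a Lrfn5 intron), the last in a run of 6653 bp with 3 YY1 matches.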

How the data were processed

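HA ChIP-seq peak lists of EHMT2-dTAG mESCs were analysed. Per the study's methods, the authors trimmed reads, aligned them with STAR (2.7.10 per the submitters' processing notes) to the mouse genome with multi-mapping reads assigned at random to 1 best location, removed duplicates and blacklisted regions, called peaks with MACS2 (2.2.6; use of a control library is not given in the sources used here) and kept those with a q-value under 0.05. The build was mm10 (GRCm38) per the labels. The deposited columns are a score, the fold over background at the summit (a ratio), and −log10 p and q-values; the authors merged the C29F4 replicates before calling.

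The pileup and background at each summit were solved from the deposited fold and −log10 p (100% of peaks solved within 0.01). The lowest background of each list was taken as its mean coverage. Read totals per library were not used here. Overlap needed 1 bp. Where several partners overlapped, the tallest was used. Summits were annotated with GENCODE vM21 and the soft-masked RefSeq GRCm38 sequence. Pileup recovery and overlap calls were checked on simulated peaks (100% of 5000 recovered; 0 of 4000 calls differed from bedtools 2.31.1). Python 3.11.15, numpy 2.4.6, pandas 2.3.3, scipy 1.17.1 and matplotlib 3.10.9 were used. The members, motifs and gene lists were chosen with earlier results of these data known.

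Named peaks were the 5 highest C29F4 folds without an input peak, the 5 highest and 5 lowest ratios, the 10 highest folds within 1 kb of a protein-coding start, the 5 highest in long runs, up to 5 genes per gene list and the 3 nearest to the selection's edge on each side. Of these, 2 peaks are not reported here. Alternatives tried were a stricter overlap, summit distance, q-value thresholds, a thinned DMSO list, leaving out input-overlapping members, other distances and run lengths, whole-peak GC, other partners, fold in place of pileup and a smaller motif window.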

Additional observations from a re-analysis of the deposited data

How the results depend on the processing

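The ChIP lists hold no values per replicate, and the C29F4 replicates were merged before peaks were called, so leaving out a replicate was not possible. No paired analysis was possible because the ab9110 DMSO and dTAG libraries share 1 replicate number only, which gives a single pair, and the C29F4 list merges 2 replicates. No test between conditions was made. The depth of the dTAG list (mean coverage 1.23) limits which peaks could be called, and ratios of single peaks rest on few fragments. In all 2295 members 82.0% were lower in dTAG, at a median ratio of 0.618, and no alternative turned this direction. Values are called unchanged below when they stayed within the 95% interval of the value reported (a count within 1.5 times). This held for 37 of 86 recomputed values, and for those outside it the cause was not tested. For the soft-masked share the interval counts each base as independent and is very narrow (69.9 to 70.0%). Every recomputed soft-masked share therefore fell outside it, however small the change.

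With overlap over 50% of the C29F4 peak, 1316 members remained, of which 11.7% were at starts, 33.7% in long runs and 0.608% on input peaks, with 65.6% of bases soft-masked, a median GC of 51.0%, a median ratio of 0.700 and 78% lower in dTAG. With summits at most 250 bp apart there were 1321 members, 39.4% in long runs, 65.5% soft-masked and 1.14% on input peaks. A q-value under 0.01 gave 70.5% soft-masked and a GC of 57.8%, and one under 0.001 left 1008 members, 11.9% at starts, 69.9% soft-masked and 78.4% lower in dTAG. After binomial thinning of the DMSO pileups to the coverage in dTAG, 47.5% were in long runs, 71.5% soft-masked, GC was 58.3%, the ratio 0.579 and 84.0% were lower. Without members on input peaks 69.6% of bases were soft-masked. Starts within 500 bp took 7.71% and protein-coding starts 6.88%, and whole-peak GC was 48.9%. The deposited fold in place of pileup gave a ratio of 0.674 with 79.3% lower.

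After the data were seen, 2 alternatives and the SOX and ESRRB motifs were added. Division by the median ratio of all DMSO peaks with a dTAG partner (1.14) gave 0.540 with 88.7% lower. The 1094 members with a median of 1 copy per 31-base word held 18.5% at starts, 0.457% in long runs and 0.274% on input peaks. Their median GC was 46.7% and their median ratio 0.859, with 67.6% lower in dTAG. This filter takes out nearly all long-run members, whose windows are repeated sequence, so it cannot test the long-run results. In a 200 bp window the YY1 motif was in 42.7% of members instead of 48.5%.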
